A study of Mus musculus with 11 samples.

Results

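Transcripts of mouse germinal center B cells that lacked either of a pair of related lysine acetyltransferases were compared with those of wild-type cells. The members are 6 knockout libraries and 5 WT libraries, which are all 11 libraries of the series. The knockout side joins 3 CBP-KO and 3 p300-KO libraries, with the mean of each knockout given equal weight, and the genes described are those that differed from WT in this pooled contrast with the same sign in both knockouts. WT mice were Crebbp+/+;Ep300+/+;Cg1cre/+, CBP-KO mice Crebbpfl/fl;Ep300+/+;Cg1cre/+ and p300-KO mice Crebbp+/+;Ep300fl/fl;Cg1cre/+. Every group therefore carried the Cg1cre allele, a Cre driven from the constant region gene of IgG1 that acts in B cells responding to antigen. Mice were immunized with sheep red blood cells, and on day 12 B220+ PNA+ CD95+ cells were sorted from the spleen. The labels put the WT mice in Crebbp crosses, and none is labelled as a littermate of the p300-KO mice, so cross or background and the loss of Ep300 cannot be told apart. Age, sex, litter and batch were not given, and the labels do not say that each library came from a separate animal, so p-values measure the spread between these libraries.

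CREBBP and EP300 are large coactivators that are brought to enhancers and promoters by transcription factors, among them CREB, and that acetylate histone tails and other proteins. The germinal center is the site where activated B cells divide and mutate their antibody genes in a dark zone and then compete in a light zone for antigen and for help from T cells. Both genes are recurrently mutated in lymphomas that arise from germinal center B cells, CREBBP more often than EP300.

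Depth ranged from 53550726 to 132861266 reads per library. All 12 germinal center B cell markers were tested, and Ms4a1, Cd79a and Bcl6 stood at 29307 normalized reads or more in every library. Others of the 12 changed: Rgs13 and Fas fell and S1pr2 rose in the pooled contrast with the same sign in both knockouts. Taken separately, limma called 3 lower in CBP-KO, and 2 lower and 2 higher in p300-KO. The shares of all tested genes were 4.88% lower in CBP-KO, and 6.09% lower and 5.84% higher in p300-KO. Libraries that stood apart were WT_46, at -57.7 on the first principal component (21.4% of the variance) against -28.3 to -11.3 in the other WT libraries and 13.2 to 36.0 in the knockouts, and p300-KO_18. The latter held Xist at 98751 beside a summed level of 9852 for 4 Y-linked transcripts, where every other library was high in 1 of these alone. Without both, 1418 genes were called in the pooled contrast. In sorted bulk cells, fewer cells of a type and less RNA per cell cannot be told apart.

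The targeted genes checked the labels in part. Ep300 (chromosome 15, 81585351 to 81652077) stood at 19310.3, 22238, 21460.3, 22498 and 20833 in the WT libraries, 22789, 25741 and 23271 in CBP-KO and 14829, 14796 and 13773 in p300-KO, so every p300-KO library lay below, and every CBP-KO library above, all WT libraries. Its pooled difference (log2 -0.19, limma adjusted p = 0.0302) joined opposite signs, 0.17 in CBP-KO and -0.55 in p300-KO, so Ep300 is not among the shared genes. Its pooled call was lost without WT_41, WT_46, WT_7, WT_288, p300-KO_289, CBP-KO_55 or CBP-KO_1 (largest adjusted p 0.0763). Crebbp (chromosome 16, 4081328 to 4213997) did not pass in the pooled contrast (log2 0.07, adjusted p = 0.575). It stood at 8866 ± 743 in WT, 8247 ± 612 in CBP-KO and 10415 ± 471 in p300-KO, and the CBP-KO libraries overlapped WT (log2 -0.10, adjusted p = 0.459), so a fall of Crebbp in the libraries labelled CBP-KO did not pass the test. The values are per gene and not per exon, so they do not show whether floxed exons were lost, and the level of Crebbp does not check the CBP-KO label.

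Of 16515 genes tested with limma, 1703 (10.3%) passed in the pooled contrast, 812 (4.92%) higher and 891 (5.4%) lower than in WT. Of these, 1638 had the same sign in both knockouts, 799 higher (4.84% of tested genes) and 839 lower (5.08%), and 65 had opposite signs. The same sign is a weak condition: 256 genes passed in each knockout on its own in the higher direction (1.55% of tested genes) and 221 in the lower direction (1.34%), 477 in all. With 1 library left out that total was as low as 244 (CBP-KO_53 left out), 253 (CBP-KO_55) and 297 (p300-KO_289). Against WT, 574 genes (3.48%) were higher and 806 (4.88%) lower in CBP-KO, and 965 (5.84%) higher and 1005 (6.09%) lower in p300-KO. Among the 799 higher genes, 137 passed in CBP-KO but not p300-KO, 344 in p300-KO but not CBP-KO and 62 in neither taken separately. Among the 839 lower genes the numbers were 274, 293 and 51. Passing in one knockout and not in the other does not show that they differ, and the direct contrast of CBP-KO with p300-KO, in which 1556 genes (9.42%) passed, separated the knockouts for 107 of the higher and 235 of the lower genes. The sum of these, 342, was 161 without CBP-KO_55, 181 without CBP-KO_53, 193 without p300-KO_18 and 210 without p300-KO_287. Of those 107, 29 changed more in CBP-KO and 78 more in p300-KO, and of the 235 the numbers were 122 and 113. For the remaining shared genes a difference between the knockouts did not pass the test, which does not show that they were alike. Both knockouts were set against the same 5 WT libraries, so their differences from WT share an error.

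**Figure D1:**
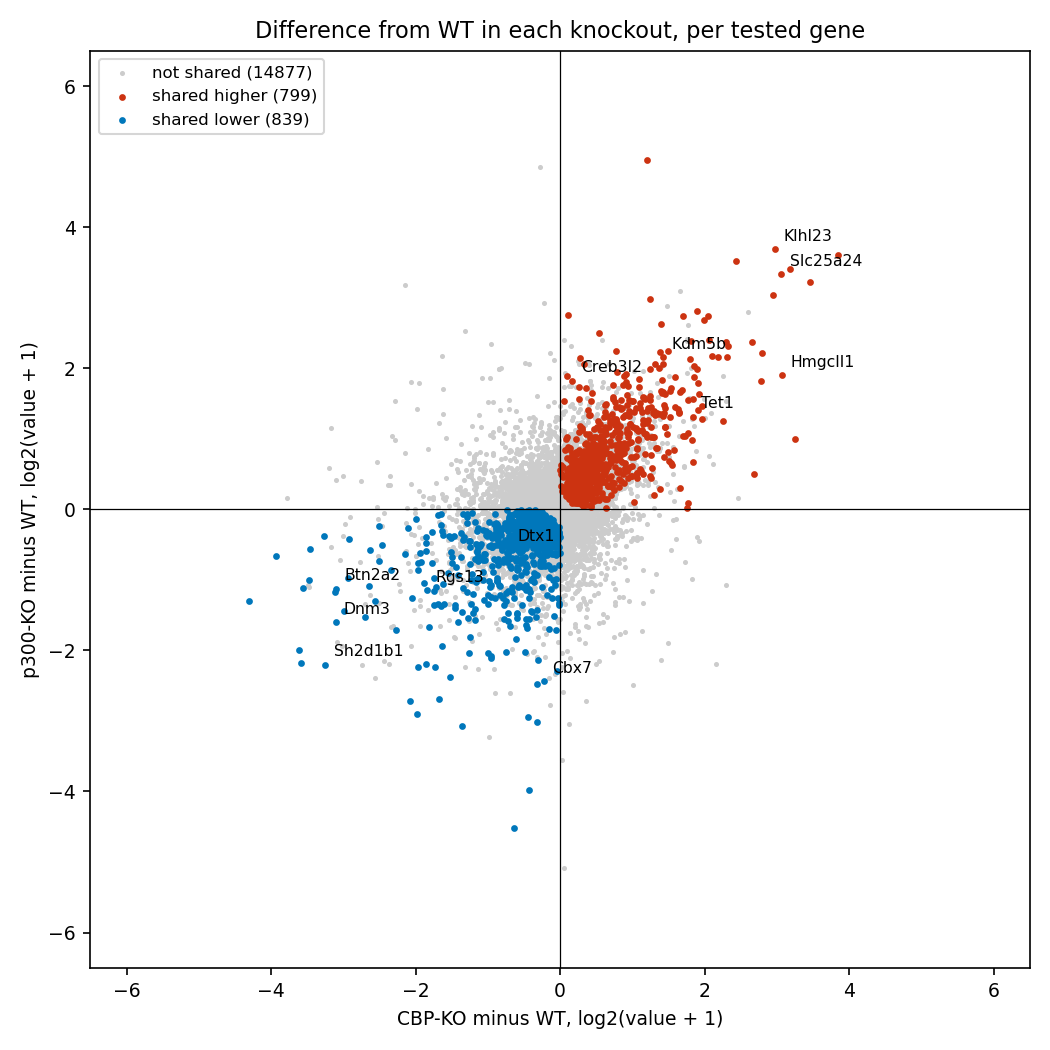
Each point is 1 of 16515 tested genes, with the CBP-KO minus WT difference across and the p300-KO minus WT difference up, both in log2(value + 1); a name stands to the upper right of its point. The 799 genes called higher with the same sign lie to the upper right and the 839 called lower to the lower left, and genes such as Cbx7 and Creb3l2 lie near an axis because 1 knockout carries most of their difference.

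The shared changes were mostly small. The median pooled log2 difference was 0.50 over the higher genes and -0.39 over the lower genes, against -0.01 over all tested genes. At least a 2-fold pooled change was seen in 172 higher and 120 lower genes, and at least 2-fold in each knockout in 110 and 53. The 6 knockout libraries lay wholly outside the range of the 5 WT libraries for 442 of the higher and 368 of the lower genes, beside 504 (3.05%) and 414 (2.51%) among all tested genes. Values just inside the threshold were those of Anapc1 (log2 0.16), Stx12 (log2 0.21) and Nlrp2 (log2 -1.01), and just outside those of Zfyve16 (log2 0.26), Ergic3 (log2 0.17) and Pgs1 (log2 -0.25). Levels differed by direction: per kilobase of exon, the median WT level was 132 normalized reads for higher genes, 758 for lower genes and 324 for all tested genes. When the 6 knockout libraries were fitted as 1 group, so that differences between the knockouts counted as spread, 918 genes passed, all among the 1638.

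The genes with the largest shared increases were weakly expressed in WT. They were ranked by the smaller of their changes in the knockouts, among genes whose WT and knockout libraries did not overlap and whose knockout mean was at least 50. Slc25a24 (chromosome 3, 109123149 to 109168457), a mitochondrial carrier of ATP-Mg and phosphate, stood at 18.6, 29.1, 8.43, 18.4 and 22.2 in the WT libraries, 69.99, 269.5 and 207 in CBP-KO and 167, 159.8 and 261 in p300-KO. The lowest knockout library, CBP-KO_1, was still above all WT libraries, and the pooled log2 difference was 3.20 ± 0.36 (SE, limma adjusted p = 0.00028). Here and below, library values are normalized read counts in the order WT_4, WT_7, WT_41, WT_46 and WT_288, then CBP-KO_1, CBP-KO_53 and CBP-KO_55, then p300-KO_18, p300-KO_287 and p300-KO_289, and group values are mean ± SD over 5, 3 and 3 libraries. Klhl23 (chromosome 2, 69821944 to 69836651), of the kelch family of ubiquitin ligase adaptors, stood at 12.99, 46.5, 18.7, 10.5 and 67.9 in the WT libraries, 302, 152 and 167 in CBP-KO and 367, 506 and 186 in p300-KO (log2 3.33, adjusted p = 0.000843). Its WT libraries spread more than those of Slc25a24, with WT_7 and WT_288 highest, and the knockouts again did not overlap WT. Kdelc2 (chromosome 9, 53384025 to 53401867), an O-glucosyltransferase of the endoplasmic reticulum, stood at 5.57, 14.5, 7.49, 2.63 and 12.9 in the WT libraries, 31.4, 57.1 and 50.2 in CBP-KO and 96.04, 99.1 and 92.1 in p300-KO (log2 2.97, adjusted p = 0.000413). All of its p300-KO libraries were above all CBP-KO libraries, but the direct contrast did not pass (adjusted p = 0.194).

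Adhesion and cytoskeletal genes were among these 15 genes. Itga3, the alpha chain of a laminin-binding integrin, stood at 7.43, 11.6, 18.7, 17.1 and 7.03 in the WT libraries, 50.7, 76.7 and 60.05 in CBP-KO and 87.3, 44.7 and 58.9 in p300-KO, with log2 2.32 in CBP-KO and 2.32 in p300-KO (pooled adjusted p = 0.000639). Cdh1, which encodes E-cadherin, rose from 16.1 ± 8.29 to 53.4 ± 11.2 and 62.4 ± 21.3, and Ctnnd1, the p120 catenin that binds cadherin tails, from 72.2 ± 22.6 to 235 ± 78.2 and 229 ± 34.2. The pooled log2 differences were 1.95 for Cdh1 (adjusted p = 0.00931) and 1.70 for Ctnnd1 (adjusted p = 0.000644). For both, 6 of 6 knockout libraries were higher than any WT library, as the choice of these 15 genes required. The actin bundling protein gene Pls3 stood at 20.4, 20.4, 29.98, 23.6 and 45.7 in the WT libraries, 113, 83.6 and 111 in CBP-KO and 221, 233 and 138 in p300-KO (log2 2.35, adjusted p = 0.000148), and the formin gene Fmnl2 rose by log2 2.23 (adjusted p = 0.00505), with WT_7 at 43.6 and CBP-KO_55 at 43.7 as the closest libraries. Jcad, named for its product at cadherin junctions, rose by log2 2.17 (adjusted p = 0.00517).

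The other genes of largest shared increase had varied roles. Gpx7, a peroxidase of the endoplasmic reticulum, stood at 18.6, 29.1, 10.3, 7.88 and 12.9 in the WT libraries, 48.3, 79.7 and 61.1 in CBP-KO and 102, 70.3 and 143 in p300-KO (log2 2.39, adjusted p = 0.000785). Ppm1e, a protein phosphatase, was the most abundant of the 15, at 342, 339, 221, 198 and 321 in the WT libraries, 901, 1131 and 1133 in CBP-KO and 804, 777 and 1021 in p300-KO (log2 1.78, adjusted p = 8.37e-05). Hmgcll1, a relative of HMG-CoA lyase, was the only 1 of the 15 for which the knockouts differed in the direct contrast (adjusted p = 0.0332): it stood at 124, 117 and 133 in CBP-KO and 66.9, 33.6 and 72.9 in p300-KO, against 14.9, 11.6, 15.9, 13.1 and 14.6 in WT. Bicd1, an adaptor of the dynein motor, rose by log2 1.66, with WT_46 at 234 the highest WT library and at most 103 in the others. Maged2, of the MAGE family, rose by log2 1.73. AC164424.1, a gene known by its clone name alone, rose by log2 1.87 with the weakest evidence of the 15, and its call was lost without WT_4, p300-KO_18, p300-KO_287, p300-KO_289, CBP-KO_53 or CBP-KO_55 (largest adjusted p 0.0916).

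Of the shared higher genes, 26 (3.25%) had a WT mean under 10, beside 205 (1.24%) of all tested genes, and 12 a WT mean of at most 5. Genes with so low a WT mean were tested only where the knockout libraries brought the mean over all libraries to 10, so they had to be higher there. Tspan6, a tetraspanin gene on chromosome X, stood at 1.86, 2.91, 0, 0 and 0 in the WT libraries, 9.65, 39.3 and 28.4 in CBP-KO and 29.1, 9.59 and 23.03 in p300-KO. Gprin3 stood at 1.86, 0, 0, 5.25 and 1.17 in the WT libraries, 19.3, 27.5 and 19.7 in CBP-KO and 11.6, 25.6 and 20.5 in p300-KO, and Acvr1, a receptor for bone morphogenetic proteins, at 5.57, 0, 5.62, 0 and 4.68 in the WT libraries, 21.7, 27.5 and 30.6 in CBP-KO and 37.1, 20.8 and 38.4 in p300-KO. These values correspond to a handful of reads at most in any WT library, and to more in every knockout library. Fold changes of such genes depend on the pseudocount and are not given.

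The largest shared decreases included genes of immune signalling. They were ranked as the increases were, so their knockout libraries had to lie below all WT libraries. Sh2d1b1 (chromosome 1, 170277320 to 170286769), an adaptor of SLAM family receptors with a close paralog that could take part of its reads, stood at 549, 529, 566, 940.2 and 820.2 in the WT libraries, 98.96, 29.5 and 110.3 in CBP-KO and 175, 157 and 106 in p300-KO. The highest knockout library was at 175 and the lowest WT library at 529, and the pooled log2 difference was -2.73 ± 0.31 (SE, limma adjusted p = 0.000245). Ifnlr1, the specific receptor chain for interferon lambda, stood at 861, 916, 1108, 1749 and 768 in the WT libraries, 340.3, 224 and 385 in CBP-KO and 381, 527 and 326 in p300-KO (log2 -1.55, adjusted p = 0.000849). WT_46 was highest for Ifnlr1, and the knockouts lay below the other WT libraries as well. Rgs13 (chromosome 1, 144138654 to 144177372), a regulator that shortens chemokine receptor signals and marks germinal center B cells, stood at 16178, 16272, 15889, 13363 and 17869 in the WT libraries, 8293, 2718 and 3816 in CBP-KO and 8385, 10236 and 4242 in p300-KO (log2 -1.50, adjusted p = 0.00347). Within each knockout Rgs13 ranged more than 2-fold.

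The other genes of largest shared decrease had varied roles. Atf3, a transcription factor induced by stress, stood at 135, 105, 77.8, 90.6 and 73.2 in the WT libraries, 53.1, 26.6 and 48.04 in CBP-KO and 29.1, 25.6 and 55.02 in p300-KO (log2 -1.30, adjusted p = 0.00802). Osbpl3, of the oxysterol-binding protein family, fell from 5114 ± 948 to 2204 ± 1271 and 2029 ± 1010.4 (log2 -1.40), and Atp10b, a lipid flippase (log2 -1.52); its highest WT value was 567 in WT_46, against 214 or less elsewhere in WT. Dnm3, a dynamin, stood at 187, 153, 283, 436 and 94.3 in the WT libraries, 31.4, 15.7 and 22.9 in CBP-KO and 80.8, 83.1 and 42.2 in p300-KO and fell in each knockout (log2 -3.11 in CBP-KO and -1.60 in p300-KO). The direct contrast for Dnm3 did not pass (adjusted p = 0.0681). The GTPase-activating protein gene Arhgap32 fell (log2 -1.79), the LIM domain gene Fhl1 (log2 -1.74), Fam174b (log2 -2.10), the glutathione transferase gene Gstp3, which has close paralogs (log2 -1.21), and the phagosomal metal transporter gene Slc11a1 (log2 -1.23). Adjusted p values of these 5 lay between 0.00124 and 0.0148. Rab44, a GTPase of the Rab family, fell (log2 -2.02), with a call lost without WT_41, WT_7, CBP-KO_53 or CBP-KO_55 (largest adjusted p 0.0585). Ifi211, an interferon-inducible gene with close paralogs, stood at 38.98, 15.99, 41.2, 376 and 25.8 in the WT libraries, 4.83, 0 and 10.9 in CBP-KO and 7.28, 12.8 and 10.2 in p300-KO (log2 -2.88), and its call was lost without WT_41, WT_4, p300-KO_18, p300-KO_287, p300-KO_289 or CBP-KO_53 (largest adjusted p 0.0684) and without both WT_46 and p300-KO_18 (adjusted p = 0.08). AC164424.1 and Ifi211 also missed the threshold with the knockouts fitted as 1 group (adjusted p = 0.0509 and 0.0578). Of the 30 genes of largest shared change, the other 27 passed without each library in turn.

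**Figure D2:**
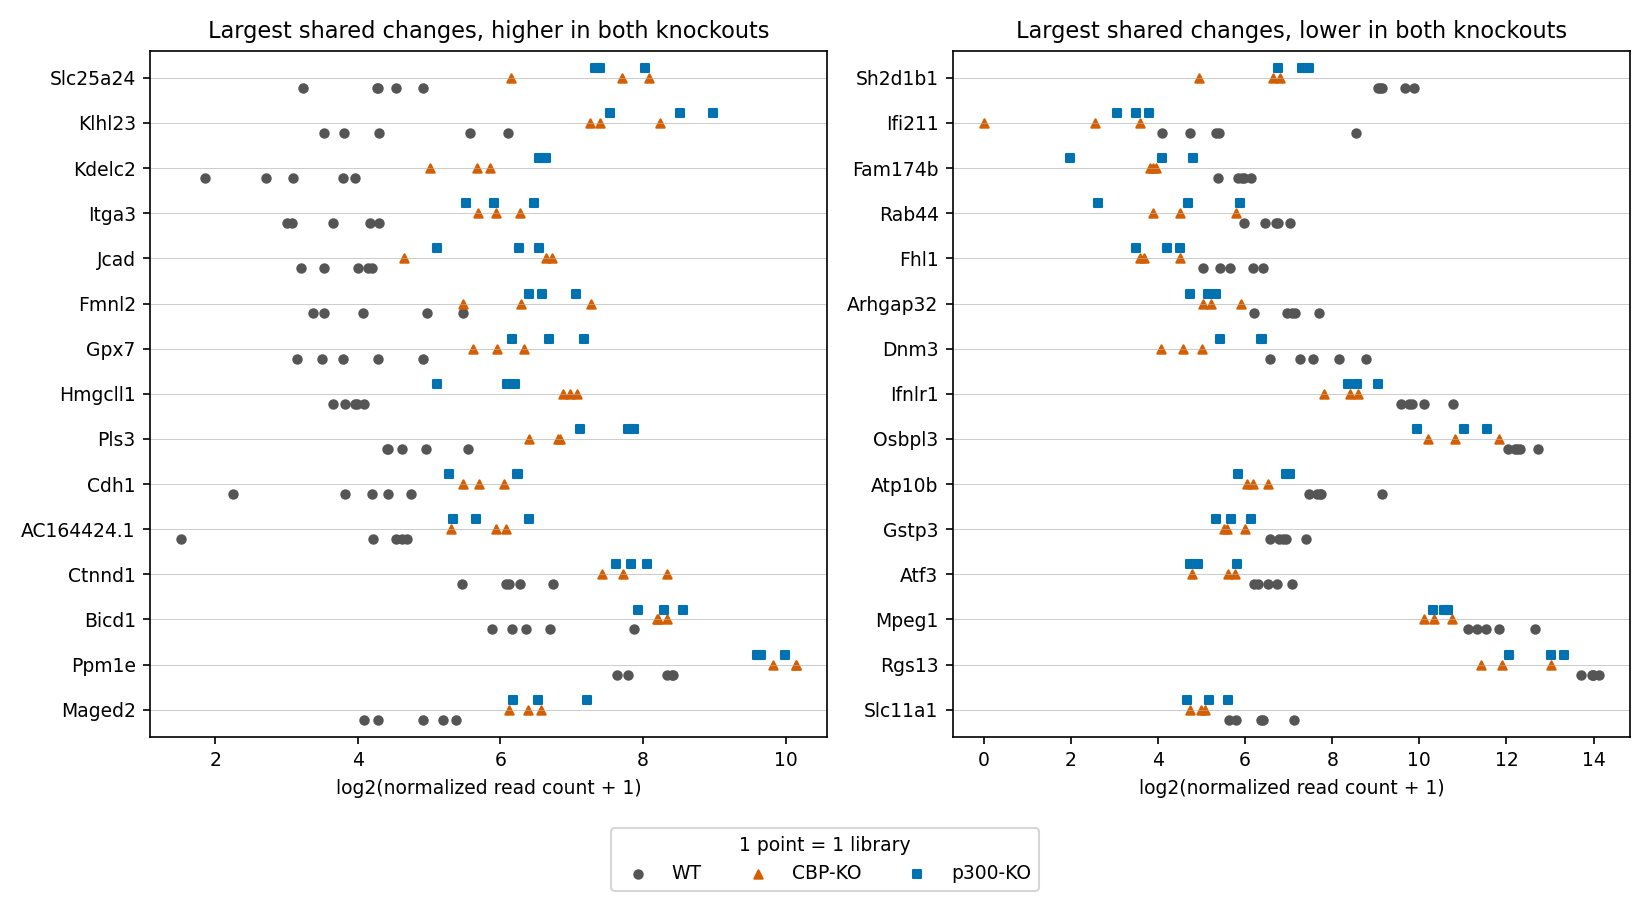
Each point is 1 library, as log2(normalized read count + 1), for the 15 genes of largest shared increase on the left and the 15 of largest shared decrease on the right. In each row the orange CBP-KO and blue p300-KO points lie on the same side of the gray WT points without overlap, as the choice of these genes requires, and the differences in means are largest for Slc25a24, Klhl23 and Kdelc2 on the left and Ifi211 and Sh2d1b1 on the right.

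Genes that write or erase chromatin and DNA marks changed in both directions. Of 38 tested, 8 rose (Dnmt3a, Dnmt3b, Tet1, Tet2, Kdm5b, Kdm1a, Kmt2c and Nsd1) and 3 fell (among them Cbx7 and Eed) with the same sign in both knockouts, and 4 of those that rose passed in each knockout taken separately. Over all tested genes 4.84% were shared higher, 5.08% shared lower and 1.55% higher in each knockout. Taken separately, limma called 5 lower in p300-KO and 0 in CBP-KO, where 3 were lower at an unadjusted p below 0.05, edgeR called 0 and DESeq2 called 1. Kdm5b, a demethylase of lysine 4 of histone H3, stood at 217, 193, 371, 143 and 201 in the WT libraries, 574, 752 and 439 in CBP-KO and 911, 1079.5 and 897 in p300-KO (log2 1.79 ± 0.21, limma adjusted p = 0.000299). Tet1, which oxidizes methylcytosine, stood at 66.8, 52.3, 49.7, 57.8 and 66.7 in the WT libraries, 177, 246 and 214 in CBP-KO and 143, 197 and 111 in p300-KO (log2 1.57, adjusted p = 0.000212). No knockout library overlapped WT for either gene. Tet2, of the same family, went from 1040.4 ± 189.9 to 1333 ± 100.4 in CBP-KO and 1739 ± 253 in p300-KO (log2 0.56, adjusted p = 0.00866). Dnmt3a and Dnmt3b, the de novo DNA methyltransferases, rose together. Dnmt3a stood at 2397, 2485, 1832, 1971 and 2188 in the WT libraries, 2954, 3328 and 2935 in CBP-KO and 4472, 5335 and 4778 in p300-KO, with log2 0.51 in CBP-KO and 1.17 in p300-KO, a difference between the knockouts that passed (adjusted p = 0.00336), and Dnmt3b rose by log2 0.47 (adjusted p = 0.0037).

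Cbx7, a chromodomain subunit of Polycomb complex 1, had the smallest pooled p of the list, but its fall came from p300-KO. It stood at 6555, 7338, 8537, 7827 and 6294 in the WT libraries, 6630.02, 6184 and 5856 in CBP-KO and 1241, 1468 and 1312 in p300-KO, so the p300-KO libraries were far below the others while CBP-KO overlapped WT. The log2 difference was -0.22 in CBP-KO (adjusted p = 0.184) and -2.44 in p300-KO (adjusted p = 1.70e-08), and the knockouts differed (adjusted p = 1.67e-07). When the knockouts were fitted as 1 group the call was lost (adjusted p = 0.119). Cbx7 lies within 5 Mb of Ep300 on chromosome 15, a neighbourhood described below. Of 21 acetyltransferase genes, Clock rose by log2 0.27 (adjusted p = 0.0111) and Kat6b by log2 0.31 (adjusted p = 0.0185), with the Kat6b call lost without CBP-KO_53 (adjusted p = 0.0506). Of 24 genes of deacetylases and corepressors, Tbl1xr1, a subunit of the NCoR and SMRT corepressor complexes, fell (log2 -0.30, adjusted p = 0.00217), Hdac7 fell (log2 -0.25, adjusted p = 0.0076), and Rcor1 was called higher, a call lost without WT_41, WT_4, WT_7, WT_288, p300-KO_287, p300-KO_289, CBP-KO_53 or CBP-KO_1 (largest adjusted p 0.0876). The shares beside these few calls were 4.84% higher and 5.08% lower of all tested genes.

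Genes of antigen presentation by MHC class II fell in the pooled contrast through CBP-KO. Of 17 tested, 9 fell with the same sign in both knockouts and Rfxap, a subunit of the class II promoter factor RFX, rose. Over all tested genes the shares were 5.08% shared lower and 4.84% shared higher, and 4.88% lower in CBP-KO taken separately. On their own, 11 fell in CBP-KO, while limma called 0 of 17 in p300-KO, where 1 was lower at an unadjusted p below 0.05, edgeR called 0 and DESeq2 called 1. H2-Aa (chromosome 17, 34282744 to 34287823), the alpha chain of I-A, stood at 152672, 142809, 153770.0, 126744 and 143867 in the WT libraries, 100092, 91189.8 and 75307 in CBP-KO and 124964, 140903 and 126527 in p300-KO. All CBP-KO libraries lay below WT, and the p300-KO libraries overlapped it (log2 -0.70 and -0.14). The knockouts differed in the direct contrast for H2-Aa (adjusted p = 0.00473), its partner chain gene H2-Ab1 (adjusted p = 0.00158), and the peptide exchange genes H2-DMa (adjusted p = 0.00947) and H2-Oa (adjusted p = 0.0145). All 4 lost their pooled call when the knockouts were fitted as 1 group (adjusted p from 0.0634 to 0.141). Of 19 MHC class I genes, limma called 3 lower in the pooled contrast, H2-Q7 and Tap1, a subunit of the peptide transporter, with the same sign in both knockouts and H2-T23 with opposite signs. At an unadjusted p below 0.05, 14 of the 19 were lower, and edgeR and DESeq2 each called 8 lower. Taken separately, 4 class I genes fell in CBP-KO. H2-Q7 stood at 2515, 1787, 2909.8, 7625 and 1512 in the WT libraries, 671, 936 and 1120.2 in CBP-KO and 1414, 1271 and 1251 in p300-KO, and WT_46 was far above the other WT libraries, with the call lost without WT_41 (adjusted p = 0.0512). The call of Tap1 was lost without WT_41, WT_4, p300-KO_18, p300-KO_287, p300-KO_289, CBP-KO_53, CBP-KO_55 or CBP-KO_1 (largest adjusted p 0.0643). Reads of H2 genes can be split among near copies, which makes their single values uncertain. Of 12 tested macrophage markers, 7 also fell in CBP-KO and 1 in p300-KO, with values given below, and their part in the class II, class I and light zone results was not tested.

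Of 34 genes raised in the light zone, 14 fell with the same sign in both knockouts, and 18 fell in CBP-KO and 6 in p300-KO on their own. Bhlhe40, a transcription factor of activated lymphocytes, fell more in p300-KO, at 949, 695, 960.3, 801 and 662 in the WT libraries, 559.9, 511 and 477 in CBP-KO and 391, 324 and 299 in p300-KO (log2 -0.64 and -1.25, direct adjusted p = 0.0303). Its knockout libraries did not overlap WT. Nr4a1, an early response gene of antigen receptor signals, stood at 925 ± 232 in WT, 375 ± 32.7 in CBP-KO and 665 ± 78.5 in p300-KO, and Ccnd2, cyclin D2, at 2109 ± 302, 827 ± 115 and 2002 ± 160.2. Both fell in CBP-KO. In p300-KO they differed from WT by log2 -0.44 for Nr4a1 (adjusted p = 0.142) and -0.07 for Ccnd2 (adjusted p = 0.804), with libraries that overlapped WT, and the knockouts differed for both (direct adjusted p = 0.0251 and 0.000158). Ccnd2 lost its pooled call with the knockouts as 1 group (adjusted p = 0.179). Fas, the death receptor used as CD95 in the sort, fell from 6821 ± 323 to 5409 ± 696 and 5411 ± 169.5 (log2 -0.34, adjusted p = 0.00427), so the transcript of a marker used for the sort differed between the groups. Of 24 dark zone genes, Rgs13 and Tcf3 fell and S1pr2 rose with the same sign in both knockouts. The shares over all tested genes were 5.08% lower and 4.84% higher. Taken separately, 4 dark zone genes rose and 1 fell in CBP-KO (median of the list log2 0.15). In p300-KO 1 rose and 6 fell (median -0.06).

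In the NF-kB and CD40 list, 10 of 29 tested members fell in the pooled contrast and Ccl22 rose, beside 5.08% lower and 4.84% higher of all tested genes. Taken separately, 14 fell and 1 rose in CBP-KO, while 1 fell and 2 rose in p300-KO, and 1 of the 10 fell in each. The shares of all tested genes were 4.88% lower in CBP-KO, 6.09% lower in p300-KO and 1.34% lower in each. Map3k14, the kinase that starts the alternative NF-kB pathway, stood at 4954, 5147, 5031, 4472 and 4410.2 in the WT libraries, 3857, 3793 and 3446 in CBP-KO and 3916, 4146 and 3752 in p300-KO (log2 -0.33, adjusted p = 0.00295), and its knockout libraries did not overlap WT. Traf1, a signalling adaptor downstream of CD40, fell in CBP-KO (log2 -0.57) and differed from WT by log2 -0.15 in p300-KO (adjusted p = 0.233, direct adjusted p = 0.00769), with its pooled call lost when the knockouts were fitted as 1 group (adjusted p = 0.0694). Nfkbie, which encodes an NF-kB inhibitor, fell (log2 -0.45, adjusted p = 0.00915). Ccl22, a chemokine that attracts CCR4+ T cells, went the other way, at 42.7, 95.96, 63.7, 36.8 and 90.2 in the WT libraries, 128, 285 and 146 in CBP-KO and 191, 248 and 537 in p300-KO (log2 1.87, adjusted p = 0.00382). Every knockout library was above every WT library for Ccl22, and p300-KO_289 was highest.

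Targets of cAMP and CREB signalling were also among the lower genes. Of 21 tested, 6 fell (Gem, Junb, Rgs2, Nr4a1, Pde4b and Pde4d), and Gem and Rgs2 did so in each knockout taken separately. Over all tested genes 5.08% were shared lower and 1.34% were lower in each knockout. Gem, a small GTPase, stood at 1368, 1250.4, 1248, 1261 and 1247 in the WT libraries, 891, 827 and 771 in CBP-KO and 838, 832 and 959.6 in p300-KO, with little spread within any group (log2 -0.58 ± 0.06, limma adjusted p = 0.000238, exact permutation p = 0.00216, the smallest that 6 against 5 libraries allow). Gem was named by its small pooled p in these same libraries, so the exact p is no separate support. Other named genes, Bhlhe40 and Map3k14 among them, had the same exact p. Rgs2, which dampens G protein signals, fell in each knockout (log2 -0.33 in CBP-KO and -0.42 in p300-KO), and Junb fell in CBP-KO (log2 -0.66) and differed (log2 -0.16) in p300-KO (adjusted p = 0.18, direct adjusted p = 0.00309). Junb lost its pooled call with the knockouts as 1 group (adjusted p = 0.0624). Some genes stand in several lists, Nr4a1 and Traf1 among them, so the counts of lists are not independent.

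**Figure D3:**
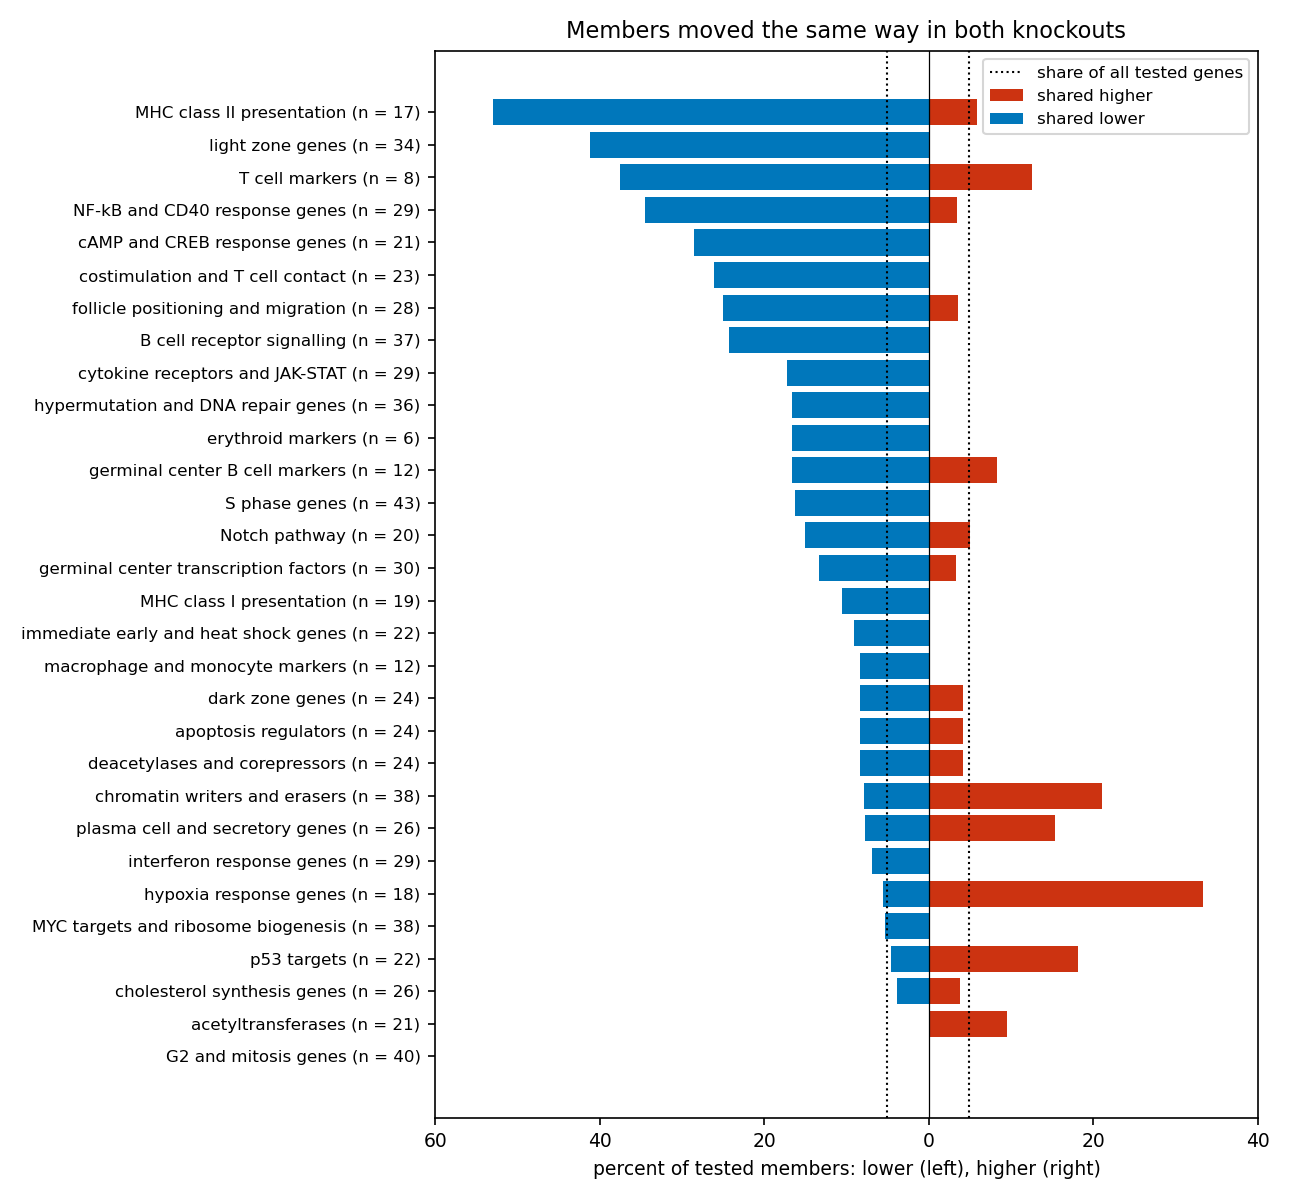
Bars give the percent of tested members of each gene list that passed the pooled contrast with the same sign in both knockouts, lower to the left and higher to the right, and n is the number tested. Dotted lines mark the share among all tested genes, 5.08% lower and 4.84% higher, and the bars reaching farthest are those of MHC class II genes, light zone genes and the 8 tested T cell markers to the left and of hypoxia and chromatin genes to the right.

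Promoters were searched for the full element bound by CREB, TGACGTCA, in the 250 bases before and 50 after the start in RefSeq (GRCm38.p6), where 10207 tested genes had an entry. It was present in 1.66% of 782 promoters of shared higher genes, 1.44% of 836 of shared lower genes and 3.04% of all 12907. The shorter TGACG, which the full element contains, was present in 23.2%, 25.8% and 30.4%. The AP-1 element TGANTCA was present in 3.71%, 5.26% and 4.93%, an NF-kB element in 0.256%, 0.479% and 0.434%, and the E-box CAGCTG in 16.5%, 17.1% and 15.3%, each on either strand. Of 116 named genes, 92 counted as searched, so the search did not cover all of them and gives no full count. The full element was found in 4 genes. Their promoters are shown 5′ to 3′ along the gene's own strand with that element in capitals. They are H2-Aa (chr17:34287774-34288073, minus strand), Jak1 (chr4:101265174-101265473, minus strand), Ppan (chr9:20887925-20888224, plus strand) and S1pr2 (chr9:20976744-20977043, minus strand).
H2-Aa: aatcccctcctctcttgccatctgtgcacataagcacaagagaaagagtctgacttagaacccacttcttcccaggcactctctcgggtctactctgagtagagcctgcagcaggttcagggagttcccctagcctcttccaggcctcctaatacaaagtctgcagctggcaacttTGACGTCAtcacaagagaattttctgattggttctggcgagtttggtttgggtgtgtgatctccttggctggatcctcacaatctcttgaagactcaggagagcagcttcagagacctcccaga
Jak1: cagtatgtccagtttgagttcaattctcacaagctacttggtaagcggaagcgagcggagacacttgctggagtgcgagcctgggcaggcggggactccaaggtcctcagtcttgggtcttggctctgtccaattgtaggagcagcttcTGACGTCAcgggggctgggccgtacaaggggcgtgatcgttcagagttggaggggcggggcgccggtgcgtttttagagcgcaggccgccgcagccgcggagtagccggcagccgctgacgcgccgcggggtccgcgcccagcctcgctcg
Ppan: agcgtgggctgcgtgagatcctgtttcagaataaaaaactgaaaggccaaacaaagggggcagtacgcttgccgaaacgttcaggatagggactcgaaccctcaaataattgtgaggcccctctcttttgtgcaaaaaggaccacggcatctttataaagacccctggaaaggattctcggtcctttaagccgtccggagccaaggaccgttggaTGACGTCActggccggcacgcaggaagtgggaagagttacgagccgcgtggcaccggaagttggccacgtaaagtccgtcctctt
S1pr2: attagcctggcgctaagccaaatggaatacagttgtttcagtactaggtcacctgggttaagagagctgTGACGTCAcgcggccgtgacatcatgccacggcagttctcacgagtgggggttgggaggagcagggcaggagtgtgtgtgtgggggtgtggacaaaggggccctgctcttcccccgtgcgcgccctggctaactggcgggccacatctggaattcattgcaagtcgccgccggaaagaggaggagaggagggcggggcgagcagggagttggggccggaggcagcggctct
The element begins 74 bases before the start in H2-Aa, 101 in Jak1, 35 in Ppan and 181 in S1pr2. H2-Aa, Jak1 and Ppan are shared lower genes and S1pr2 is a shared higher gene, so the printed element stood before genes of both directions. A match of letters does not show that a factor binds there.

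Of the genes behind these promoters, Ppan, a ribosome biogenesis factor, fell in both knockouts, at 7984, 7937, 7686, 7527 and 7433 in the WT libraries, 5344, 5713 and 6195 in CBP-KO and 6949.9, 6106 and 6257 in p300-KO (log2 -0.34, adjusted p = 0.00116). Its knockout libraries did not overlap WT. Jak1, a kinase of cytokine receptors, fell (log2 -0.21) and S1pr2, the receptor that keeps germinal center B cells in the follicle, rose by log2 0.16. The Jak1 call was lost without WT_41, WT_4, WT_7, WT_288, p300-KO_18, CBP-KO_53 or CBP-KO_55 (largest adjusted p 0.0641), and that of S1pr2 without WT_41, WT_4, WT_7, WT_288, p300-KO_18, p300-KO_289, CBP-KO_53 or CBP-KO_1 (largest adjusted p 0.0832). Beside Ppan, Odc1, an enzyme of polyamine synthesis, fell from 22143 ± 1873 to 15383 ± 822 and 17582 ± 828. These 2 were the members of 38 MYC target and ribosome biogenesis genes that passed, a share near the 5.08% lower of all tested genes. In the cytokine receptor list 5 of 29 fell in the pooled contrast, while taken separately 7 fell in CBP-KO (median of the list log2 -0.18) and 1 fell and 4 rose in p300-KO (median 0.07). Of the 5, Ifngr1, an interferon gamma receptor chain, stood at log2 -0.36 (adjusted p = 0.0026).

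Antigen receptor signalling and positioning in the follicle also held more lower than higher genes. Of 37 receptor signalling genes 9 fell, and 4 of them fell in each knockout taken separately. Over all tested genes the shares were 5.08% shared lower and 1.34% lower in each knockout. Vav2, an exchange factor for small GTPases, stood at 14682, 14193, 15324, 15289.5 and 14040.4 in the WT libraries, 12480.5, 11572 and 11590.2 in CBP-KO and 12063, 12562 and 12129 in p300-KO (log2 -0.29, adjusted p = 0.001), and Inpp5d, the inhibitory lipid phosphatase SHIP, fell (log2 -0.23, adjusted p = 0.00213), so an activating and an inhibitory gene fell together. Syk, the kinase at the receptor, stood at 76582 ± 3381 in WT, 70967 ± 2141 in CBP-KO and 49553 ± 3503 in p300-KO. CBP-KO overlapped WT for Syk, the knockouts differed (direct adjusted p = 0.00042), and the pooled call was lost with the knockouts as 1 group (adjusted p = 0.0904). Of 28 positioning genes 7 fell, beside the same 5.08%. Cxcr5, the receptor that draws B cells into follicles, stood at 20962, 19082, 20198, 17065 and 15722 in the WT libraries, 14182, 14177 and 11979 in CBP-KO and 14707, 13272 and 13302 in p300-KO (log2 -0.45, adjusted p = 0.00319). Rgs10 fell (log2 -0.52, adjusted p = 0.00333), with no overlap between WT and knockout libraries. Lower values without overlap were seen for 2.51% of all tested genes.

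Notch pathway genes that fell did so in each knockout. Dtx1, a Deltex regulator of Notch, stood at 17684, 15227, 16778, 16899 and 15866 in the WT libraries, 11816, 9377 and 9254 in CBP-KO and 11466, 10496 and 11471 in p300-KO, with log2 -0.71 in CBP-KO and -0.56 in p300-KO (pooled adjusted p = 0.000156). Its relative Dtx4 fell (log2 -1.01, adjusted p = 0.00313), as did Maml2, a coactivator that links Notch to EP300 (log2 -0.41, adjusted p = 0.0039). They were 3 of 20 tested members, beside 5.08% shared lower and 1.34% lower in each knockout among all tested genes. The related Maml1 was called higher (log2 0.20), a call lost without WT_46, WT_7, WT_288, p300-KO_287, p300-KO_289, CBP-KO_53 or CBP-KO_1 (largest adjusted p 0.0879). Among 23 genes of contact with T cells 6 fell, beside the same 5.08%. Btn2a2, a butyrophilin with close paralogs, stood at 201, 172, 206, 177 and 224 in the WT libraries, 36.2, 21.6 and 13.1 in CBP-KO and 67.7, 179 and 57.6 in p300-KO, lower in CBP-KO than in p300-KO (direct adjusted p = 0.00981), and the p300-KO_287 library overlapped WT. Cd200, an inhibitory surface ligand, fell (log2 -0.45, adjusted p = 0.00615).

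Some genes of DNA replication and repair fell. Of 43 S phase genes 7 fell in the pooled contrast, and taken separately 3 fell and 1 rose in CBP-KO and 16 fell in p300-KO. Over all tested genes 5.08% were shared lower, 4.88% were lower in CBP-KO and 6.09% lower in p300-KO. The median log2 difference over the 43 was -0.001 in CBP-KO and -0.20 in p300-KO. Pold1, which encodes the polymerase subunit of DNA polymerase delta, stood at 26919, 25810.4, 25245, 27057 and 26118 in the WT libraries, 23843, 21418 and 23010.1 in CBP-KO and 20286, 18335 and 19711 in p300-KO (log2 -0.21 and -0.43, direct adjusted p = 0.0284). Its knockout libraries did not overlap WT, and p300-KO lay below CBP-KO. Cdt1, which licenses replication origins, fell (log2 -0.30, adjusted p = 0.0011) as did Gins1, a subunit of the replicative helicase (log2 -0.35, adjusted p = 0.00756). Among 36 genes of hypermutation and repair 6 fell in the pooled contrast (4 lower and 3 higher in CBP-KO, 9 lower and 1 higher in p300-KO), and Xrcc1, a scaffold of single-strand break repair, had the smallest p of these, at 26362, 25648, 28602, 27789 and 25651 in the WT libraries, 19345, 19859 and 19748 in CBP-KO and 22982, 20887 and 22836 in p300-KO (log2 -0.36, adjusted p = 0.000408). In the G2 and mitosis list, of 40 members limma, edgeR and DESeq2 each called 0 in the pooled contrast. At an unadjusted limma p below 0.05, 3 were higher and 1 lower there. Taken separately at that threshold, 13 were higher and 0 lower in CBP-KO, and 1 higher and 6 lower in p300-KO. After adjustment limma called 1 higher in CBP-KO and 2 lower in p300-KO. DESeq2 called 6 higher in CBP-KO, and 1 higher and 3 lower in p300-KO. The median log2 difference of the list was 0.12 in CBP-KO and -0.02 in p300-KO.

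Some targets of p53 and of hypoxia-inducible factors were among the higher genes. Of 22 p53 targets 4 rose and Fas fell, beside 4.84% higher and 5.08% lower of all tested genes. Taken separately, 5 rose and 1 fell in CBP-KO, and 6 rose and 2 fell in p300-KO. The median log2 difference of the list was 0.08 in CBP-KO and -0.02 in p300-KO, and 9 of the 22 lay below 0 in the pooled contrast. Zmat3, an RNA-binding protein gene, stood at 1578, 1842, 1879, 2105 and 1945 in the WT libraries, 3268, 2863 and 2456 in CBP-KO and 2596, 3079.5 and 2518 in p300-KO (log2 0.58, adjusted p = 0.00169). Ccng1, cyclin G1, rose by log2 0.38 (adjusted p = 0.00338) and Phlda3, an inhibitor of AKT signalling, from 23.8 ± 6.97 to 49.01 ± 5.74 and 52.3 ± 9.34 (log2 1.09). These 3 rose in each knockout taken separately. Of 18 hypoxia genes 6 rose, and Ndrg1 was called lower by limma but not by edgeR or DESeq2. The median of this list was log2 0.15 in CBP-KO and -0.02 in p300-KO, and 7 of the 18 lay below 0 in the pooled contrast. Egln1, the prolyl hydroxylase that marks hypoxia-inducible factor for degradation, stood at 2618, 2764, 2389, 2042 and 2767 in the WT libraries, 3499.6, 4234 and 3951 in CBP-KO and 3640.1, 3294 and 4206 in p300-KO (log2 0.60, adjusted p = 0.00146), and Mxi1, an antagonist of MYC, rose by log2 0.79 (adjusted p = 0.00163). P4ha1, a collagen prolyl hydroxylase, stood at 646, 616, 648, 524 and 534 in the WT libraries, 559, 961 and 917 in CBP-KO and 1094, 939 and 1155 in p300-KO, where CBP-KO_1 lay within the WT range.

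Among 26 plasma cell and secretory genes 4 rose and 2 fell, and 11 rose in p300-KO on its own against 2 in CBP-KO. Over all tested genes 4.84% were shared higher and 5.08% shared lower, and 5.84% rose in p300-KO and 3.48% in CBP-KO. Sdc1, the plasma cell marker syndecan 1, stood at 109.5, 139.6, 137, 68.3 and 119 in the WT libraries, 183, 178 and 198 in CBP-KO and 426, 332 and 274 in p300-KO (log2 1.17, adjusted p = 0.00202). All knockout libraries were above WT, and the direct contrast did not pass (adjusted p = 0.0506). Ern1, the sensor IRE1 of unfolded proteins, rose in p300-KO (log2 0.94) and differed by log2 0.36 in CBP-KO (adjusted p = 0.0735, direct adjusted p = 0.0149). Creb3l2, a transcription factor of the secretory apparatus, was carried by p300-KO, at 115, 145, 122, 165 and 117 in the WT libraries, 118, 177 and 155 in CBP-KO and 566, 498 and 365 in p300-KO, and overlapped WT in CBP-KO (log2 0.17 and 1.83). Its pooled call was lost with the knockouts as 1 group (adjusted p = 0.152). Herpud1, of endoplasmic reticulum degradation, fell through CBP-KO (log2 -0.51 and -0.13), with the pooled call likewise lost (adjusted p = 0.0779).

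**Figure D4:**
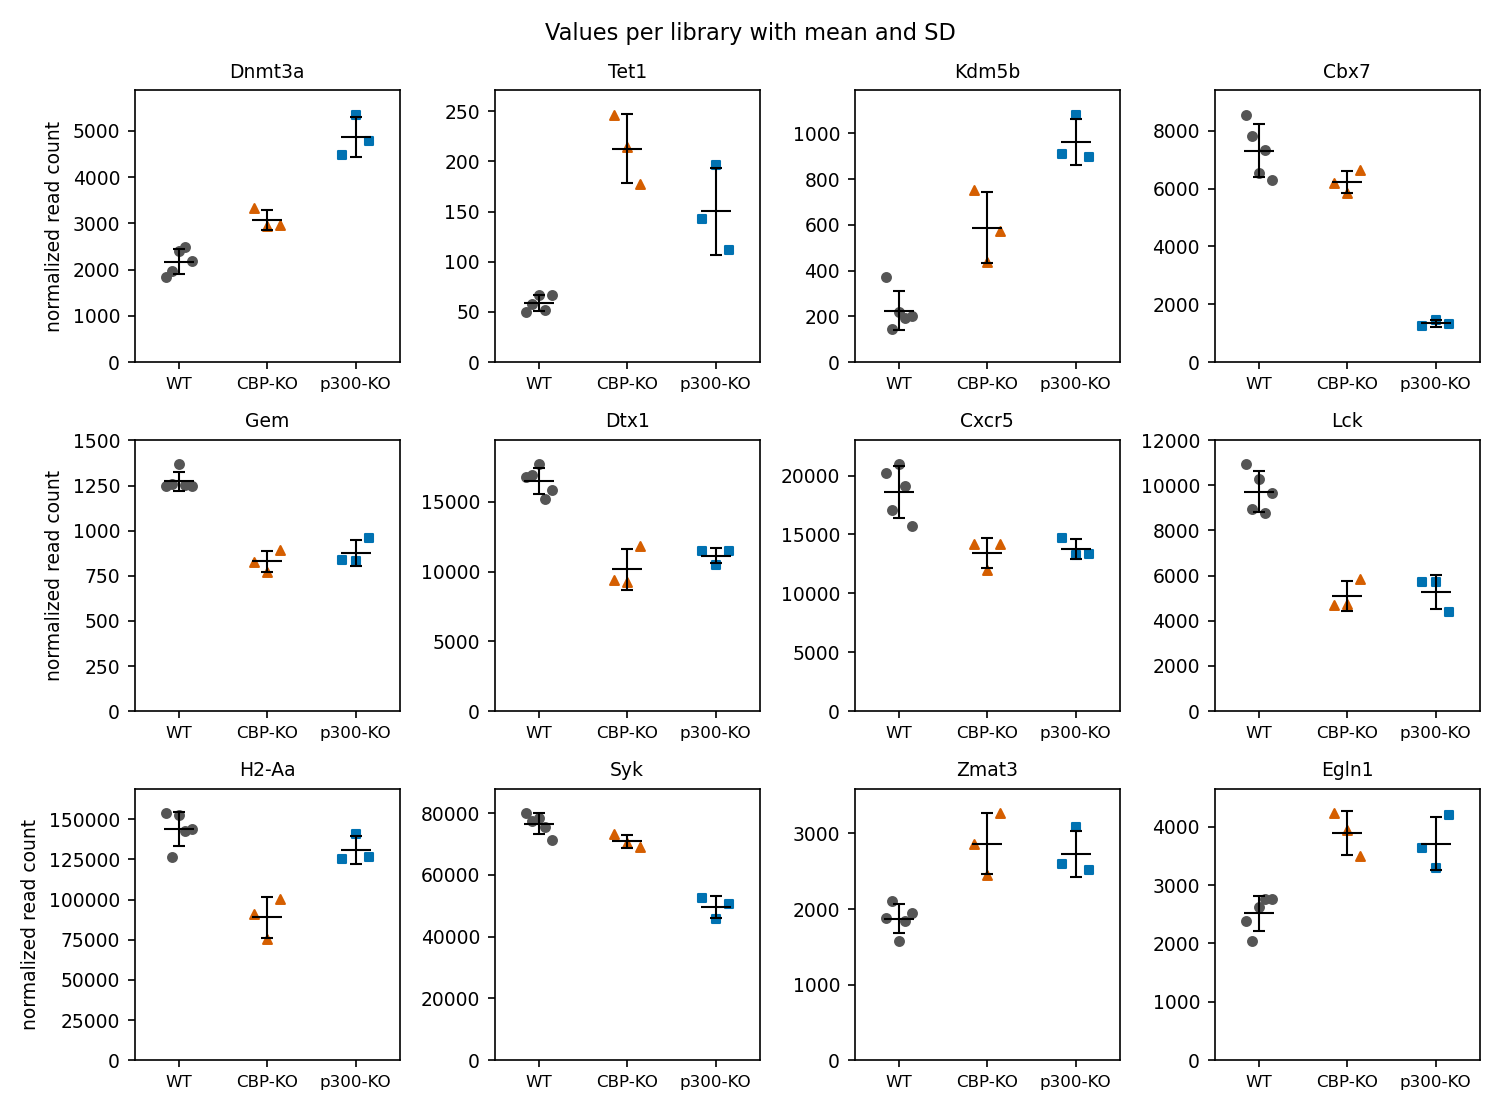
Normalized read counts of 12 genes, with 1 point per library and bars for the mean and SD of 5 WT, 3 CBP-KO and 3 p300-KO libraries. Dnmt3a, Tet1, Kdm5b, Zmat3 and Egln1 are higher and Gem, Dtx1, Cxcr5 and Lck lower in both knockouts, while Cbx7 and Syk are lower mainly in p300-KO and H2-Aa mainly in CBP-KO.

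In the list of germinal center transcription factors, 4 of 30 fell (2 in CBP-KO and 7 in p300-KO taken separately) and Tcf12 was called higher (log2 0.20), a call lost without WT_41, WT_46, WT_4, p300-KO_287, p300-KO_289, CBP-KO_53 or CBP-KO_1 (largest adjusted p 0.0823). Irf8 fell (log2 -0.26, adjusted p = 0.00762), with no overlap between WT and knockout libraries. Id3, an inhibitor of E proteins, and Tcf3, which encodes the E protein E2A, fell in p300-KO. Id3 differed from WT by log2 -0.13 in CBP-KO and -0.84 in p300-KO, and Tcf3 by -0.03 and -0.35. Both lost their pooled call with the knockouts as 1 group (adjusted p = 0.13 and 0.186). Shared calls were 2 lower of 29 genes of interferon response, 1 higher and 1 lower of 26 of cholesterol synthesis, 1 higher and 2 lower of 24 of apoptosis, and 2 lower of 22 of immediate early and heat shock response, beside 4.84% higher and 5.08% lower of all tested genes. edgeR and DESeq2 each called 4 interferon genes lower, and DESeq2 called 5 apoptosis and 4 immediate early and heat shock genes lower. Over the cholesterol synthesis genes the median log2 difference was 0.16 in CBP-KO and -0.18 in p300-KO. At an unadjusted limma p below 0.05, 8 of them were higher and 1 lower in CBP-KO, and 2 higher and 12 lower in p300-KO. After adjustment limma called 1 higher in CBP-KO, and 1 higher and 4 lower in p300-KO.

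Markers of other cell types moved with the groups for some of these results. Of 19 macrophage markers 12 were tested. Taken separately, 7 fell in CBP-KO (median of the 12 log2 -2.08) and 1 in p300-KO (median 0.12), beside 4.88% and 6.09% of all tested genes. In the pooled contrast limma called 1 lower, edgeR 2 and DESeq2 4. The 1 is Mpeg1, which encodes perforin-2, at 3646, 2565, 2957, 6428 and 2212 in the WT libraries, 1103, 1301 and 1712 in CBP-KO and 1614, 1518 and 1267 in p300-KO (log2 -1.23, adjusted p = 0.00437). The summed level of the 19 markers was 4029 to 9903 in WT, 2193 to 3193 in CBP-KO and 2944 to 4004 in p300-KO. Mpeg1 was the largest part of this sum in every library, so the sum in part repeats the values of Mpeg1. WT_46 held the highest C1qb (108), C1qc (113) and Lyz2 (1014). Adgre1, which encodes F4/80, stood at 26.2 to 89.3 in WT, 13.1 to 19.3 in CBP-KO and 43.5 to 84.7 in p300-KO, and C1qb at 8.72 to 108, 0 to 3.93 and 2.56 to 32.01. Cd68 (509 to 1002) and Csf1r (305 to 488) were present in every library, and Fcgr1, Cd163 and Cd14 were at 0 or below 11. The part of these markers in the lower values of Mpeg1, Slc11a1, H2-Q7 and Ifi211 was not tested. Of 17 T cell markers 8 were tested, with Lck, Lat and Cd2 lower and Thy1 higher. Lck, a Src family kinase, stood at 10263, 8782, 10932, 8966 and 9646 in the WT libraries, 5869.8, 4701 and 4729.5 in CBP-KO and 5706, 5704 and 4404 in p300-KO (log2 -0.91, adjusted p = 0.000114), and its knockout libraries did not overlap WT. Thy1, a surface glycoprotein, stood at 29.7, 55.2, 43.1, 15.8 and 77.3 in the WT libraries, 55.5, 259.7 and 146 in CBP-KO and 234, 184 and 427 in p300-KO (log2 2.22, adjusted p = 0.00705), where CBP-KO_1 lay within the WT range. The T cell receptor genes Trac, Trbc1 and Trbc2 and the CD3 genes Cd3d, Cd3e and Cd3g stood at most at 18.1 in any library, and their sum with the other markers was 13725 to 17000 in WT, 8225 to 9201 in CBP-KO and 9319 to 10610 in p300-KO, of which Lck and Cd2 made up most. The Cd2 call was lost without WT_41, WT_46, WT_4, WT_7, p300-KO_18, p300-KO_287, CBP-KO_55 or CBP-KO_1 (largest adjusted p 0.115).

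The remaining marker lists held 1 shared gene each or none. Flt3, a receptor tyrosine kinase of dendritic cells and progenitors, stood at 4140.5, 4355, 5148, 5407 and 4206 in the WT libraries, 2945, 2876 and 3379 in CBP-KO and 2631, 2512 and 2514 in p300-KO (log2 -0.73, adjusted p = 0.000178), and the other 3 tested dendritic cell markers did not pass. The summed level of dendritic cell markers, mostly Flt3, was 4326 to 5743 in WT, 2974 to 3490.4 in CBP-KO and 2649 to 2792 in p300-KO. Cdh5, of endothelium, fell from 105 ± 13.6 to 56.99 ± 3.53 and 80.9 ± 6.15, a pooled call lost with the knockouts as 1 group (adjusted p = 0.0566). Pecam1, of the same list, stood at 3234 to 4128 in WT, 2812 to 2945 in CBP-KO and 4416 to 4904 in p300-KO. Taken separately, of 3 tested markers in that list 2 were lower in CBP-KO and 1 was higher in p300-KO. The beta globin gene Hbb-bt, which shares reads with close paralogs, was lower through p300-KO (log2 -2.29, against -0.04 in CBP-KO), and its pooled call was lost with the knockouts as 1 group (adjusted p = 0.24). Summed erythroid markers stood at 9104 to 11428 in WT, 10944 to 11481 in CBP-KO and 8899 to 9646 in p300-KO. Neutrophil markers summed to 25.8 or less in every library.

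By position, the shared lower genes were more frequent near Ep300. Of 174 tested genes within 5 Mb of it, 25 (14.4%) were shared lower and 7 (4.02%) shared higher, against 5.08% and 4.84% of all tested genes. Of these 25, 13 passed in p300-KO but not CBP-KO, 8 in CBP-KO but not p300-KO and 3 in each, and they include Cbx7, Srebf2, Tnfrsf13c and Sun2. Taken separately, 17 of the 174 were lower and 5 higher in CBP-KO, whose Ep300 alleles were not floxed. In p300-KO 29 were lower and 14 higher. Of all tested genes 4.88% were lower and 3.48% higher in CBP-KO, and 6.09% lower and 5.84% higher in p300-KO. Chromosome 15 as a whole held 52 shared lower genes, 6.198% of them, against 3.55% of tested genes. Of 49 tested genes within 5 Mb of Crebbp, 3 (6.12%) were shared lower and 1 (2.04%) shared higher, few genes beside the same shares of 5.08% and 4.84%. The floxed alleles and the DNA around them cannot be told apart here. Chromosome X held 40 shared higher genes, 5.01% of them, against 3.05% of tested genes, and the sex of the mice was not given. With the log ratio of Xist to Y-linked transcripts as a covariate, 840 genes were shared higher and 892 shared lower.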

How the data were processed

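RNA was measured in 11 libraries (5 WT, 3 CBP-KO and 3 p300-KO), grouped by the sample titles. Libraries were TruSeq RNA v2 per the labels' protocols, a kit without strand information, so antisense and overlapping genes cannot be told apart. Per the submitters' processing notes, the tools were CASAVA 1.8, HISAT2, featureCounts and DESeq2 and the build mm10, with settings not given in the sources used here. The values deposited are a signal unit: the authors divided each gene's read count by 1 size factor per library. Whole reads were recovered from the step of each column (100% of values whole within 1e-06), and their sum is the depth. edgeR on those reads called 1689 genes in the pooled contrast.

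Tested were 16515 of 48593 genes, those whose mean over the libraries reached 10; 22043 were 0 throughout. limma (version 3.58.1, variance trend on) was fitted to log2(value + 1) with a mean per group, two-sided, and p values were adjusted by Benjamini-Hochberg over all tested genes with a threshold of 0.05, and all adjusted p values are limma's unless another tool is named. The pooled contrast was the mean of CBP-KO and p300-KO minus WT. The scale of fold changes, log2(value + 1), understates changes of low genes. The exact permutation test over 462 splits was two-sided. Lists (34) are described by counts without a set test. Named genes were Crebbp and Ep300, up to 15 per direction with the largest smaller change of the knockouts (called, same sign, groups not overlapping, mean of at least 50 in the higher side), up to 4 members per list with the smallest pooled p, and 3 near-silent genes. The largest changes were ranked without predicted genes, pseudogenes, sex-linked transcripts and receptor variable segments. The members and lists were chosen with earlier results of these data known.

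Positions come from an annotation of GRCm38 (mm10) and matched 99.4% of tested genes. The procedure was tested on simulated data. Alternatives changed the pseudocount, filter, normalization, variance model, library weights, grouping, sex covariate and threshold, left out libraries, and ran edgeR 4.0.16 and DESeq2 1.42.0. Leaving out genes near the targets was added after the data were seen. Other software was R 4.3.3, Python 3.11.15, numpy 2.4.6, pandas 2.3.3 and matplotlib 3.10.9.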

Additional observations from a re-analysis of the deposited data

Results flagged for a closer look

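For 12 of 116 named genes, 1 WT library stood far from the other 4, a gap that chance gives in about 1 of 20 groups. WT_46 was that library for 11 of them. It was highest for Bicd1 (234), Ifi211 (376), Atp10b (567), H2-Q7 (7625), Tap1 (29825), S1pr2 (41178), Gbp3 (2877), Jak3 (11528) and Hbb-bt (502) and lowest for Ifi209 (12409) and Jak1 (35125). WT_4 was highest for Gem (1368), with the other WT libraries at 1261 or less.

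For 28 named genes the change from WT differed between the knockouts in the direct contrast (log2 difference in CBP-KO minus that in p300-KO). Changes were more negative or less positive in CBP-KO for the class II genes H2-DMa (-0.48), H2-Ab1 (-0.52), H2-Aa (-0.57) and H2-Oa (-0.64), for Crebbp (-0.34), Ccnd2 (-1.28), Traf1 (-0.42), Nr4a1 (-0.82), Junb (-0.49), Fyn (-0.33), Jak3 (-0.30) and Btn2a2 (-1.98), and for Ern1 (-0.58), Creb3l2 (-1.65), Herpud1 (-0.38) and Dnmt3a (-0.66). They were more positive or less negative in CBP-KO for Ep300 (0.73), Hmgcll1 (1.17), Bhlhe40 (0.61), Tcf3 (0.32), Syk (0.52), Id3 (0.71), Pold1 (0.23), Cdt1 (0.20), Msh3 (0.34), Cbx7 (2.22), Cd47 (0.23) and Hbb-bt (2.25).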

How the results depend on the processing

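No paired analysis was possible because no replicate number recurs across genotypes. The counts moved by over 1.5 times under few settings. With the knockouts fitted as 1 group, 918 genes were called in the pooled contrast, 493 shared higher and 425 shared lower, and the knockouts differed for 90 shared genes, because differences between the knockouts then count as spread. At an adjusted p below 0.01 the counts were 726, 344 and 359, with 154 genes called separately in each knockout and 101 for which the knockouts differed. At 2-fold or more they were 296, 172, 120, 93 and 57. Library weights raised the number called separately in each knockout from 477 to 780 and the number for which the knockouts differed from 342 to 667. The latter was 224 without the variance trend and 574 with DESeq2. Leaving out 1 library at a time gave 1187 to 1689 called genes, 536 to 783 shared higher, 592 to 849 shared lower, 244 to 534 called separately in each knockout and 161 to 406 for which the knockouts differed. The number called separately in each knockout was 297 without p300-KO_289, 244 without CBP-KO_53 and 253 without CBP-KO_55, and the number for which the knockouts differed was 193 without p300-KO_18, 210 without p300-KO_287, 181 without CBP-KO_53 and 161 without CBP-KO_55. Of the 1638 shared genes, 1108 to 1374 were called with the same sign without each library in turn, 1565 by edgeR and 1629 by DESeq2. No shared gene reversed its pooled sign in any setting. Of 114 named genes other than the targets, 96 passed without each library in turn, and 35 did not pass with the knockouts as 1 group. Depth was at least 53550726 reads in each library, and the number of libraries, 3 per knockout, limits the precision.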
